A study of Phyllostachys edulis with 12 samples.

Results

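The 100 genes whose share of the sequenced reads varied least through a cold treatment are described here, using whole seedlings of Phyllostachys edulis (moso bamboo), a giant grass with woody culms. Seedlings aged 3 weeks, at the three-leaf stage and grown in a green house, were either left without cold treatment (control, 3 libraries) or kept at -2 °C in a freezing chamber for 0.5 h (3 libraries), 1 h (3 libraries) or 24 h (2 libraries), with light and photoperiod as in the controls. Gene expression was measured by RNA sequencing of whole seedlings, while no source used here gives the genotype or the number of plants per library. A level is given as CPM, the count of a gene divided by the total count of its library, times 1000000. The candidates were the 4297 of 31987 genes with a PH01 identifier whose CPM lay from 30 to 300 in all 11 libraries. The members are the 100 candidates with the lowest coefficient of variation (CV, the SD of CPM over the 11 libraries as a percentage of the mean). The table lists 47091 genes in all.

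Genes of this kind are sought as reference genes. In quantitative PCR the transcript of interest is read against a transcript assumed to be constant, so a reference that itself moves with the treatment passes its change on to every result. Genes for actin, tubulin, ubiquitin and translation elongation factors are common choices in plants, and freezing temperatures are known to change the expression of many plant genes. RNA sequencing reads have the same need in another form. CPM expresses a gene as a share of all reads, while scaling factors such as TMM (trimmed mean of M values) place libraries on a scale on which the bulk of genes is level. The deposited table does not pair its identifiers with names or sequences, so members are given by identifier alone, and whether any of the common reference genes is among them was not determined. The members were chosen on the same 11 libraries that are described, so their low CV and their small differences between groups are descriptions and carry no test.

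Library totals lay between 29304206 and 34543663 counts. Columns were matched to samples by a code in the labels, and 1 labelled sample, the third replicate at 24 h, was not analysed here. The codes in the table run without a gap and those in the labels have a gap before the 24 h samples. If the table was numbered separately, the pair of libraries called 24 h replicates 1 and 2 would be other replicates of that time. The labels do not say whether replicates were separate plants or pools, so the spread between them may be technical. Because whole seedlings were used, fewer cells of a type and less RNA per cell cannot be told apart.

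The member with the lowest CV, PH01000254G0430, varied by 2.40%. It measured 92.0, 90.7 and 93.4 CPM in the controls, 92.3, 91.2 and 92.8 CPM after 0.5 h, 90.3, 91.1 and 89.0 CPM after 1 h, and 93.4 and 97.4 CPM after 24 h. Of the 1 h libraries 2 were below all controls, and the second 24 h library was the highest of all. Without that library the CV was 1.55%. PH01001149G0520 followed with a CV of 2.75%. It stood at 33.9, 35.7 and 34.1 CPM in the controls, 34.8, 33.1 and 32.9 CPM after 0.5 h, 35.5, 33.0 and 34.1 CPM after 1 h, and 34.6 and 34.2 CPM after 24 h. Both 24 h values lay inside the control range. With a mean of 1096 counts per library, counting alone (Poisson sampling) would give this gene a CV of 3.02%. On column totals its spread was thus no larger than the counting noise. It was the only one of the 100 genes whose CV on column totals was below that level. With TMM factors the CV of PH01001149G0520 was 6.32%.

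PH01000662G0600, the third in the order, had a CV of 3.25%. Its CPM was 52.9, 52.8 and 48.0 in the controls, 49.1, 49.6 and 48.5 after 0.5 h, 50.5, 50.7 and 51.9 after 1 h, and 49.6 and 49.5 after 24 h. The cold libraries all fell between the lowest and the highest control. PH01002329G0320 had a CV of 3.40% and a highest library 1.09 times its lowest. PH01000561G0570 had a CV of 3.48%, and its 24 h libraries, at 66.1 and 65.9 CPM, lay just below the control libraries at 69.7, 68.5 and 66.8 CPM. PH01004589G0100, with a CV of 3.58%, showed the same arrangement. Its CPM was 58.1, 56.3 and 54.2 in the controls, 54.4, 52.2 and 54.0 after 0.5 h, 56.5, 55.4 and 57.3 after 1 h, and 53.0 and 52.6 after 24 h. The ratio of its 24 h mean to its control mean was 0.939.

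**Figure D1:**
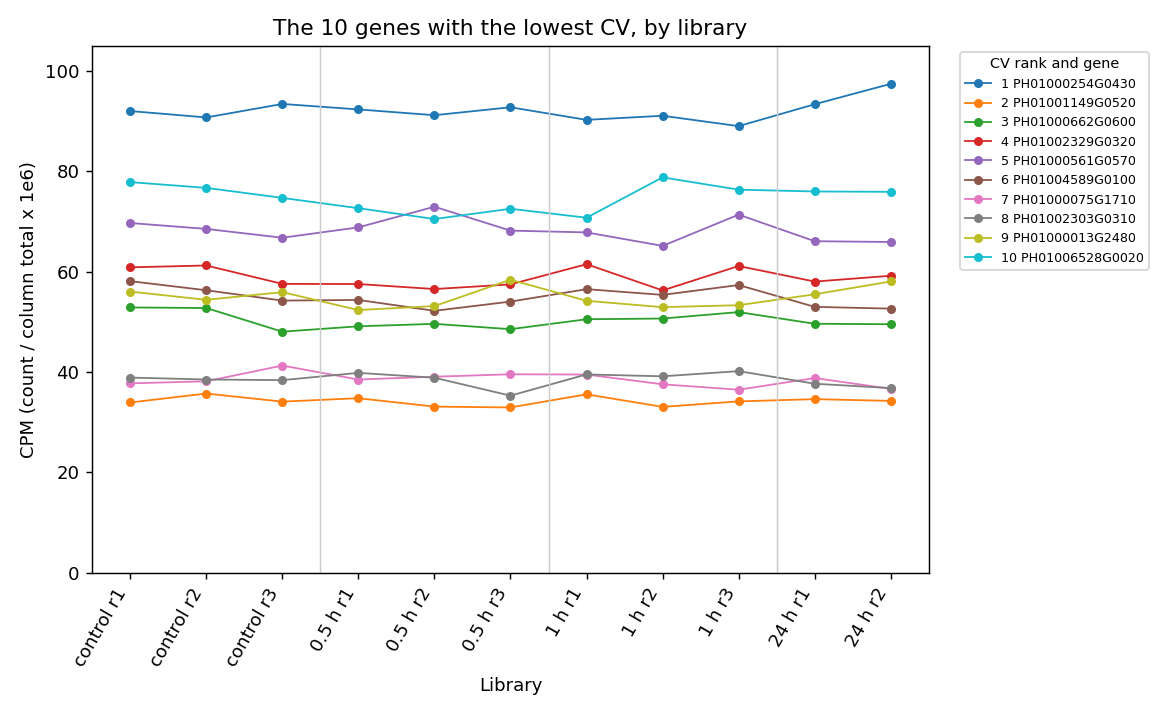
CPM (vertical axis, from 0) of the 10 genes with the lowest CV in each of the 11 libraries (horizontal axis, r for replicate), with 1 line per gene and thin vertical lines between the groups. PH01000254G0430 runs at the top between 89.0 and 97.4 CPM and PH01001149G0520 at the bottom between 32.9 and 35.7 CPM, and no other of these genes leaves the range from 35.3 to 78.8 CPM.

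The next 4 genes had CVs from 3.62% to 3.75%, and in the first of these the extreme lay in a control. PH01000075G1710 was highest in the third control library, at 41.3 CPM, and lay between 36.5 and 39.5 CPM in the other libraries. PH01002303G0310 was lowest in the third 0.5 h library, at 35.3 CPM, against 36.8 to 40.2 CPM elsewhere. PH01000013G2480 ranged from 52.3 to 58.4 CPM and had both of these values at 0.5 h. In PH01006528G0020 the 3 libraries at 0.5 h, at 72.7, 70.5 and 72.5 CPM, were below all controls, at 77.9, 76.7 and 74.7 CPM, while its 24 h libraries lay at 76.0 and 75.9 CPM, inside the control range.

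Over all 100 genes the CV ran from 2.40% to 5.43%, with a median of 4.89%, against a median of 11.8% over the 4297 candidates. The edge of the list is not a step. The last member, PH01004019G0110, had a CV of 5.43% and the first gene outside, PH01000001G2110, a CV of 5.45%. The highest library was at most 1.23 times the lowest in any member and less than 1.2 times the lowest in 86 of the 100. In PH01004019G0110 the range was set within the 1 h group, at 69.9, 66.5 and 79.4 CPM, and in PH01000001G2110 by the second control library, at 32.0 CPM against 34.3 to 38.7 CPM in the other libraries. Leaving out 1 library at a time and choosing again kept from 62 to 90 of the 100 genes. The smallest number was reached without the second 1 h library. Among the 100 genes 49 were kept in all 11 such choices, and all of the 10 steadiest were.

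**Figure D2:**
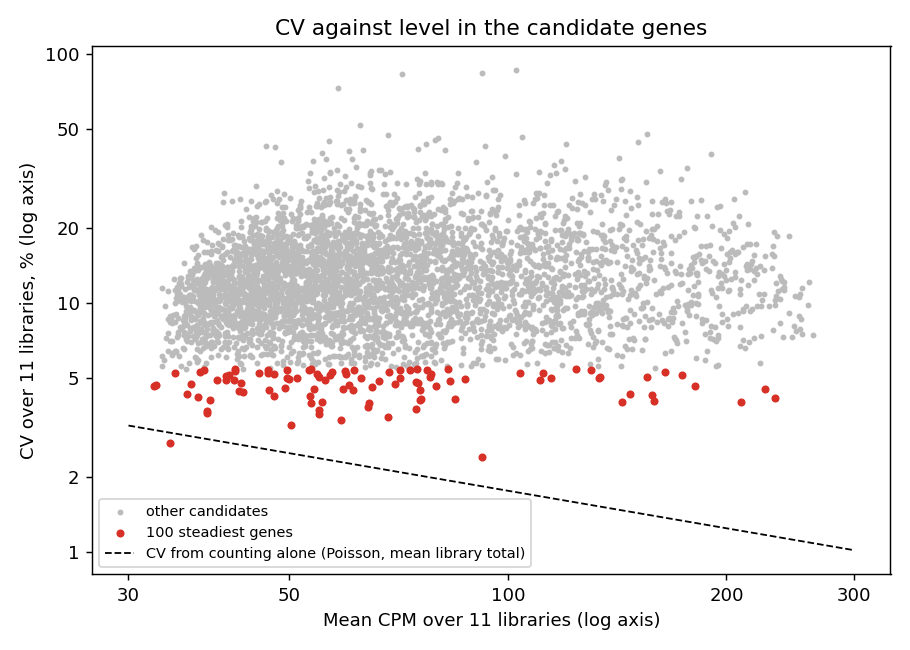
CV over the 11 libraries in percent against mean CPM, both on log axes, for the 100 members (red) and the other candidates (grey), with the CV that Poisson counting alone gives at the mean library total (dashed). The members form the lower edge of the cloud at every level, and PH01001149G0520 is the only red point under the dashed line.

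The members were spread over the range of levels that the rule admits. Their mean CPM ran from 32.5 to 233, with a median of 59.7, and the candidates had a median of 62.6. Of candidates with a mean from 30 to 50 CPM, 2.60% (32 of 1232) were members. From 50 to 100 CPM the share was 2.28% (49 of 2151) and from 100 to 200 CPM 1.99% (16 of 805). From 200 to 300 CPM it was 2.75%, which rests on 3 of 109 candidates. Thus the low CV was not confined to the more deeply counted genes. Counting noise made up a median of 23.0% of the squared CV in the members and 3.25% in the candidates, and 10 members had a CV under 1.5 times that of counting alone.

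PH01000162G1410 had the highest mean CPM of the 100. It measured 217, 249 and 229 CPM in the controls, 238, 226 and 243 CPM after 0.5 h, 240, 230 and 231 CPM after 1 h, and 221 and 239 CPM after 24 h. The lowest and the highest of its 11 values were both in control libraries. PH01000306G0430 had the lowest mean CPM, from 31.0 to 35.4 CPM in single libraries, with the highest value again in a control. These totals depend on gene length. Per kilobase of the deposited length, the mean was 47.1 CPM in PH01000162G1410 and 1.51 CPM in PH01000306G0430.

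Length was the main property available that the rule did not use. The deposited length, which may include introns, had a median of 5432 bases in the members and 6736 bases in the candidates. It exceeded 20000 bases in 8 of the 100 members (8.0%) and in 697 candidates (16.2%). The shortest member, PH01000828G0160, was 696 bases long and had a CV of 5.14%. The longest, PH01000356G0950, was 162495 bases long and had a CV of 4.52%, with a mean of 0.365 CPM per kilobase, the lowest of the members. A length bears on how many of the annotated bases collect reads, and whether it bears on the CV was not tested. The 100 genes lay on 99 different scaffolds, as read from their identifiers, and no pair of them carried adjacent gene numbers.

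Across groups, on the scale of column totals, the members' group means stayed within a narrow band because the rule requires it. The ratio to the control mean ran from 0.909 to 1.10 at 0.5 h, from 0.917 to 1.10 at 1 h and from 0.898 to 1.11 at 24 h, with medians of 1.00, 0.997 and 1.00. The full range did not widen from 0.5 h to 1 h, and the 24 h means rest on 2 libraries where the others rest on 3. Within 5% of their control mean were 89 members at 0.5 h, 77 at 1 h and 67 at 24 h. Among the 4297 candidates these counts were 2376 (55.3%), 1357 (31.6%) and 1110 (25.8%). Of the 100 members 51 were above their control mean at 24 h and 49 below, whereas 40.3% of the candidates were above.

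No library stood out as the source of the members' extremes. Each of the 11 libraries was the highest for 4 to 14 of the 100 genes and the lowest for 4 to 16. The highest group mean fell in the control for 27 members, at 0.5 h for 18, at 1 h for 24 and at 24 h for 31. The candidates were less evenly divided, with 15.2% highest in the control, 11.4% at 0.5 h, 45.8% at 1 h and 27.5% at 24 h. Differences between groups accounted for a median of 32.9% of a member's sum of squares over the 11 libraries and 42.9% of a candidate's. With 4 groups in 11 libraries a sizeable share arises without any true group difference, so neither share by itself measures an effect of cold. Within groups the members' median CV was 4.22% in the controls, 3.58% at 0.5 h, 3.76% at 1 h and 2.94% at 24 h, while the candidates' was 9.82%, 7.64%, 10.2% and 6.48%. The 24 h CVs come from 2 libraries and the others from 3, so they are not compared between groups. The members thus lay below the candidates within each group as well as between groups, which the rule also brings about.

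**Figure D3:**
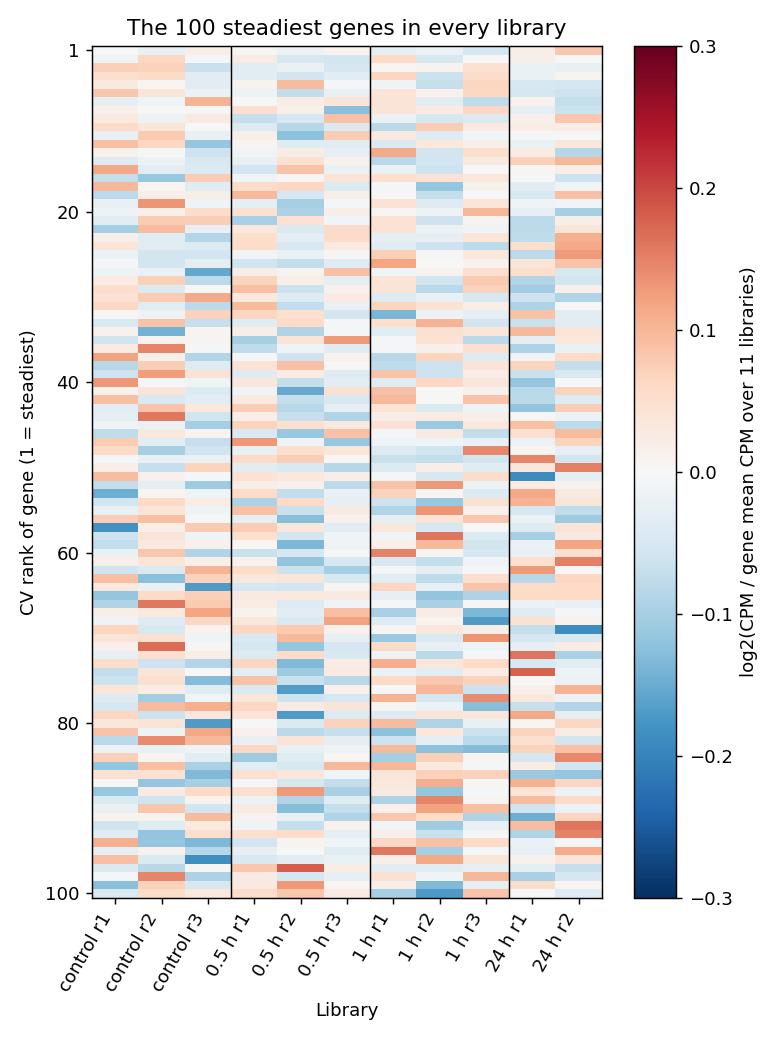
Colours give log2 of CPM over the gene's own mean of 11 libraries, with the 100 members down the page in order of CV and the libraries from left to right, black lines between the groups. Red and blue cells are scattered with no group or library of 1 colour, and the cells grow darker toward rank 100.

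The members with the smallest and the largest fitted log2 fold change at 24 h were named for that reason. On column totals the group means of each ran in order of time. PH01000314G0270 measured 43.9, 44.9 and 46.1 CPM in the controls, 43.5, 41.5 and 43.3 CPM after 0.5 h, 41.4, 42.0 and 41.2 CPM after 1 h, and 40.8 and 40.0 CPM after 24 h. Every cold library was below every control, and the ratio of 0.898 at 24 h was the lowest of the 100. PH01000243G0570 ran the other way in its group means, while its 0.5 h libraries overlapped the controls and its 24 h libraries the 1 h libraries. It measured 53.2, 49.1 and 49.6 CPM in the controls, 52.9, 51.2 and 50.6 CPM after 0.5 h, 54.4, 57.3 and 53.3 CPM after 1 h, and 57.3 and 55.6 CPM after 24 h, and its ratio of 1.11 at 24 h was the highest. With TMM factors PH01000314G0270 did not keep its order. Its log2 fold changes were then -0.041 at 0.5 h, -0.17 at 1 h and 0.0081 at 24 h. Those of PH01000243G0570 were 0.060, 0.066 and 0.32. On column totals the 24 h libraries did not overlap the controls in 26 of the 100 genes, 13 above and 13 below. The same was true of 41.6% of all 39640 genes tested and of 37.6% of the candidates. At 0.5 h the groups did not overlap in 11 members, against 9.47% of all genes tested and 5.82% of the candidates. At 1 h they did not overlap in 12 members, against 11.7% of all genes tested and 11.5% of the candidates. The rule used these libraries, so the members' counts are given only as descriptions.

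In edgeR's quasi-likelihood test with TMM factors, all 100 genes were tested, and none was called at any cold time against the control at an adjusted p under 0.05. At 24 h 0 of 100 members were called, where 7.59% of all genes were. At 0.5 h and 1 h also 0 members were called, where 0.0101% and 0.00505% of all genes were. The rule chose the members for a low CV over these libraries, so their counts here are descriptions and no test of steadiness. At an unadjusted p under 0.05 the members' counts were 0 at 0.5 h, 0 at 1 h and 25 at 24 h, where 4.64%, 6.88% and 23.1% of all genes passed. DESeq2 called 10 members at 24 h, all of them higher, where it called 12.6% of all genes, and it called 0 at 0.5 h and 0 at 1 h. With RLE factors edgeR called 1 member at 24 h, where it called 7.62% of all genes. Between 24 h and 1 h, a contrast added after the data were seen, edgeR called 5 members, all higher at 24 h, where it called 9.71% of all genes, and DESeq2 called 28, where it called 15.0%. The edgeR count was 0 when 1 h replicate 2, 1 h replicate 3 or either 24 h replicate was left out, and 1 without 1 h replicate 1. With RLE factors the edgeR count between 24 h and 1 h was 7, where 9.78% of all genes were called. With library size alone it was 0, where 13.1% of all genes were called. The median standard error of a member's log2 fold change was 0.098 at 24 h, so a p above the threshold does not show that a gene was level.

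The direction of the members' differences at 24 h depended on the scale. On the TMM scale all 100 members were higher at 24 h than in the controls, as were 2989 of the 4297 candidates (69.6%). The members had been chosen as flat on column totals, so their common shift here follows from the TMM factors of these libraries. Their log2 fold changes ran from 0.0081 in PH01000314G0270 to 0.32 in PH01000243G0570, with a median of 0.17, while the median was 0.11 over the candidates and -0.012 over all 39640 genes. The value for PH01000243G0570 had a standard error of 0.089 and an edgeR adjusted p of 0.054. PH01000254G0430, the gene with the lowest CV, differed by 0.21 on the log2 scale, with a standard error of 0.087 and an edgeR adjusted p of 0.17. With library size alone, the scale on which the members had been chosen, the median of the members was 0.0047 and that of all genes -0.18. A change of scale moves all genes alike, so the distance between the members and the median gene is the same on both.

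At 1 h the shift ran the opposite way and was smaller. On the TMM scale 80 members were lower at 1 h than in the controls and 20 higher, with a median log2 fold change of -0.059 against 0.0031 over all genes and -0.0084 over the candidates. On column totals 54 were lower and 46 higher. At 0.5 h on the TMM scale 33 were lower and 67 higher, with a median of 0.031 against -0.0025 over all genes and 0.011 over the candidates. Single controls also moved on this scale: the members' median, relative to each gene's control mean, was -0.042 in the first control library, where 28 members were above that mean, and 0.035 in the third, where 69 were. That mean includes the control itself. In the same terms the single 1 h libraries lay at -0.042, -0.087 and -0.037, with 28, 18 and 29 members above. The 0.5 h libraries lay at 0.013, 0.026 and 0.044, with 62, 61 and 68 above. The comparisons of 0.5 h, 1 h and 24 h share the control libraries.

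**Figure D4:**
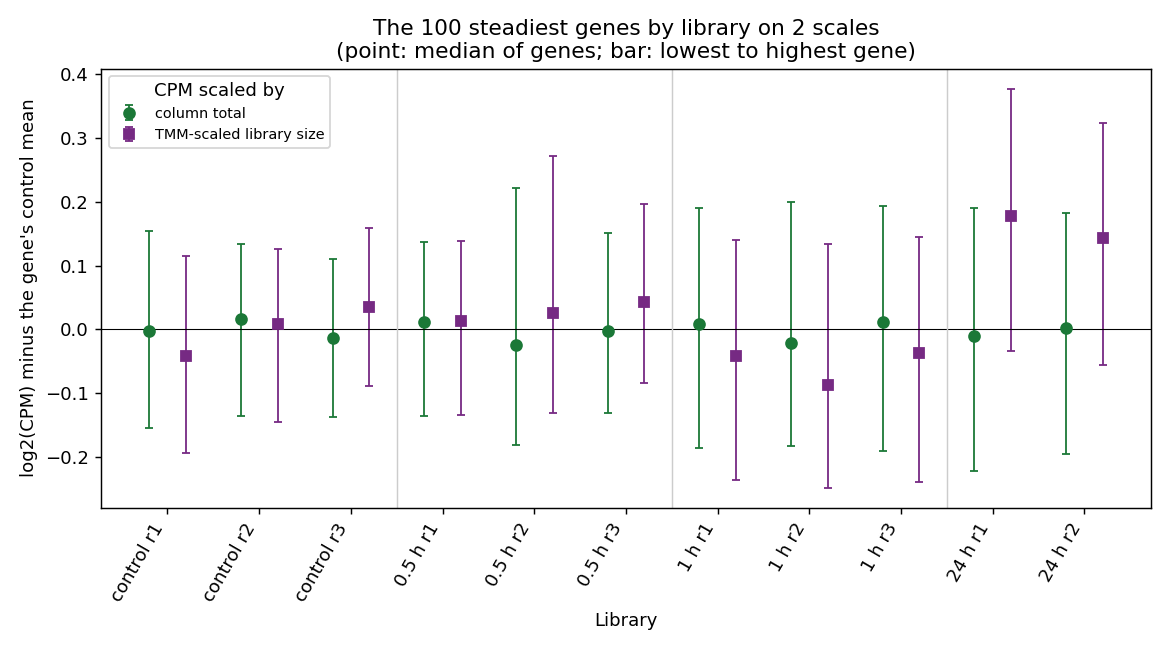
log2 CPM minus each gene's control mean (vertical axis) in the 11 libraries, with CPM scaled by column total (green circles) or by TMM-scaled library size (purple squares); points are medians over the 100 genes and bars run from the lowest to the highest gene. The green medians stay between -0.024 and 0.017, while the purple medians lie at 0.18 and 0.14 in the 24 h libraries and between -0.087 and 0.044 in the others.

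Library by library, the TMM factors show the same. They lay from 0.983 to 1.04 in the controls, from 0.982 to 1.02 at 0.5 h and from 1.05 to 1.06 at 1 h, and were 0.892 and 0.923 at 24 h. A factor from the geometric mean of the 100 genes lay between 0.985 and 1.01 in every library. The 100 genes together took 0.751% ± 0.00767 of all counts at 24 h (SD, n = 2) and 0.752% ± 0.00928 in the controls (SD, n = 3). In single libraries this share ran from 0.740% to 0.763%. When the summed count of the 100 genes was used as the scale in edgeR, 862 genes were called higher and 2959 lower at 24 h. With TMM factors 1288 were called higher and 1720 lower. With plain library size 858 were called higher and 2963 lower, and the closeness of this split to the one with these genes as the scale is set by the rule, which picks genes with a constant share of the column total.

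**Figure D5:**
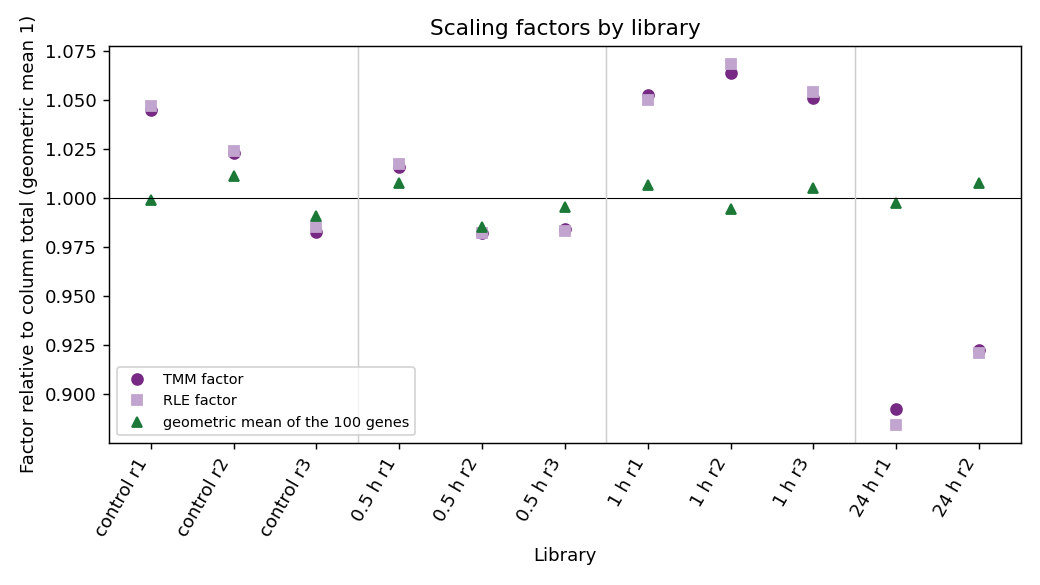
Scaling factors relative to the column total (vertical axis, geometric mean 1) in the 11 libraries: TMM factors (purple circles), RLE factors (light squares) and factors from the geometric mean of the 100 genes (green triangles). TMM lies at 0.892 and 0.923 in the 24 h libraries and RLE at 0.884 and 0.921, while the green triangles stay between 0.985 and 1.01 throughout.

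Choosing 100 genes by the same rule on TMM-scaled CPM gave a largely different list. Only 16 of the 100 members were in it, and RLE or upper-quartile factors kept 13 and 23. The genes chosen on the TMM scale had a median CV of 4.81% on that scale and 6.92% on column totals. The members had a median CV of 4.89% on column totals and 7.17% on the TMM scale, with a highest value of 10.9%. On column totals all 100 genes of the TMM list were lower at 24 h than in the controls, with a median log2 ratio of -0.15. PH01000254G0430, which led on column totals, had a CV of 7.80% on the TMM scale.

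A set of 13 members was chosen on all 4 scales (column total, TMM, RLE and upper quartile). They were singled out after their values were seen. PH01000662G0600, PH01004589G0100 and PH01002303G0310 are the highest ranked among them. PH01004589G0100 had a CV of 3.58% on column totals, 3.63% with TMM, 3.93% with RLE and 2.71% with upper-quartile factors. PH01002303G0310 had 3.70%, 4.57%, 4.81% and 3.70% in the same order of scales. PH01006811G0020, ranked 86 on column totals at 5.36%, had the lowest CV of the members on the TMM scale, at 3.12%. Its CPM by column total was 61.6, 61.6 and 54.4 in the controls, 61.6, 61.1 and 59.1 after 0.5 h, 61.2, 62.7 and 62.6 after 1 h, and 55.2 and 55.1 after 24 h. The third control library was below both 24 h libraries, and the other controls were above them. All 13 genes were slightly lower at 24 h than in the controls on column totals and slightly higher on the TMM scale, as the log2 ratio of PH01004589G0100 shows, at -0.09 and 0.075.

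A ratio between genes of the same library does not depend on the scale. The geNorm measure M of a gene, used to rank reference genes in quantitative PCR, is the mean over the other genes of the SD of the log2 ratio to each. Among the 100 members M ran from 0.073 in PH01001149G0520 to 0.11 in PH01000053G1530. Measured against all 4297 candidates, the members had a median M of 0.20 and the candidates 0.25, and 50 of the 100 candidates with the lowest M were members. The M values of the members are low by their choice and are given as a description. In PH01000053G1530 the 0.5 h libraries, at 87.5, 93.7 and 84.0 CPM, were each above all controls, at 80.2, 78.0 and 82.8 CPM. It lay between 78.8 and 81.2 CPM at 1 h and 24 h. Its CV was 5.42%, and 3.31% without the second 0.5 h library. Whether the 0.5 h libraries account for its M was not tested.

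Removing the member with the highest M step by step left PH01000662G0600 and PH01004589G0100 as the last pair, with an M of 0.034. The ratio of PH01000662G0600 to PH01004589G0100 was 0.910, 0.937 and 0.886 in the controls and 0.903, 0.950 and 0.898 at 0.5 h. It was 0.894, 0.915 and 0.906 at 1 h and 0.936 and 0.941 at 24 h. The 24 h libraries lay inside the range of the 0.5 h libraries, one of them just above the highest control. Adding PH01002329G0320 as the third gene changed the mean log2 level of the set by an SD of 0.011 over the libraries, and adding the fourth by 0.011. Both genes of this pair also stood among the 13 chosen on all 4 scales. The stepwise removal ran only within the members, and the 13 are themselves members chosen on the same libraries. The overlap is therefore a description and no independent check of the pair.

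The last question was whether a gene that is steady in part of the libraries is steady in the rest. The check is only partial, because the control libraries of each comparison were also used to choose the genes. The rule was applied without the 24 h libraries, which gave 100 genes out of 4670 candidates, and 60 of the 100 members were among them. At 24 h edgeR with TMM factors called 10 of these 100 genes, 8 higher and 2 lower, where it called 7.82% of the 4670 candidates and 7.59% of all genes tested. Their log2 fold changes ran from -0.52 to 0.61. With library size alone 4 of the 100 were called, 1 higher and 3 lower, where 8.99% of the 4670 candidates and 9.64% of all genes were called. Their median absolute log2 fold change at 24 h was then 0.093, against 0.17 in the 4670 candidates and 0.053 in the members, whose choice had used the 24 h libraries. On the TMM scale the same medians lay closer together, at 0.16 in the 100 genes, 0.19 in the 4670 candidates and 0.17 in the members. Applied without the 0.5 h libraries the rule kept 60 members, and without the 1 h libraries 46. At the time left out 0 genes of either list were called by edgeR, where 0.0101% of all genes were called at 0.5 h and 0.00505% at 1 h, and where 0 of the 4375 and 0 of the 4452 candidates were, so these counts say nothing of steadiness.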

How the data were processed

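An RNeasy kit was used for total RNA of whole seedlings and a NEBNext Ultra kit for the libraries, per the labels' protocols; strand is not stated. Reads were aligned with HISAT2, per the submitters' processing notes; its version, the genome build, the annotation, the counting tool and the treatment of multiply mapped reads are not given in any source used here, and counts of overlapping genes or close paralogs are therefore uncertain. The deposited table holds raw counts per gene, read as such because the values are whole and the column totals differ, and a length per gene. Of its count columns 11 matched a sample's description code; 1 column matched none and was not used. The design was written for 3 libraries at 24 h and was run with 2.

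CPM, CV, geNorm M and the choice of members were computed from the counts. Members and lists were chosen with earlier results of these data known. The main test was edgeR 4.0.16 (R 4.3.3, limma 3.58.1): filterByExpr (39640 genes kept), TMM factors, 1 quasi-likelihood fit of all 11 libraries with 7 residual degrees of freedom, and Benjamini-Hochberg adjustment over all genes tested. DESeq2 1.42.0, other factors, filters, subsets, a replicate block, and other ways of choosing members were alternatives. Scripts were tested on simulated data. Named genes were, by rule, ranks 1 to 10, ranks 100 and 101, and the members with the highest or lowest mean CPM, M, log2 fold change at 24 h and length; others are said to be chosen later. Counting intervals cover counting error only.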

Additional observations from a re-analysis of the deposited data

Results flagged for a closer look

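On the TMM scale 5 of the 100 genes passed edgeR's test of 24 h against 1 h at an adjusted p under 0.05, all of them higher at 24 h, while 9.71% of all genes tested passed. The count was 0 when 1 h replicate 2, 1 h replicate 3 or either 24 h replicate was left out, and 1 without 1 h replicate 1 or with the replicate block. With RLE factors it was 7, where 9.78% of all genes passed. This contrast was added after the data were seen, and the rule had used the same libraries to choose the genes as steady, so the count is a description and no test of these genes. PH01000141G0660, named after its values were seen, measured 65.6 and 68.7 CPM by column total at 24 h and 61.1, 57.0 and 60.5 CPM at 1 h, without overlap. On the TMM scale the log2 difference was 0.39, with a standard error of 0.095 and an edgeR adjusted p of 0.028. PH01002495G0180, named in the same way, measured 49.1 and 51.5 CPM at 24 h and 46.4, 45.6 and 45.0 CPM at 1 h, a log2 difference of 0.36 with a standard error of 0.086 and an edgeR adjusted p of 0.028. The TMM factors of the same libraries were 0.892 and 0.923 at 24 h and 1.05 to 1.06 at 1 h, and with library size alone 0 of the 100 genes were called by edgeR, with 0 at an unadjusted p under 0.05, where 13.1% and 29.6% of all genes passed.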

How the results depend on the processing

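Of the 100 members, other ways of choosing kept 16 (TMM), 13 (RLE), 23 (upper quartile), 19 (CV of the group means), 50 (geNorm M), 59 (CPM from 50 to 200), and 60, 46 and 60 (without all 0.5 h, 1 h or 24 h libraries); leaving out 1 library kept 62 to 90, and the other 5 ways kept 83 to 97. No member was kept in all 25 choices. At 0.5 h and 1 h against the control 0 members were called by edgeR or DESeq2 in all alternatives run. At 24 h against the control the count of 0 became 1 with RLE factors, 10 with DESeq2, 10 for genes chosen without the 24 h libraries and 4 for the same with library size alone, the last added after seeing the data; leaving out 1 library gave 0. The members' median log2 fold change at 24 h was 0.13 with upper-quartile factors and 0.0047 with library size alone, and 0.14 to 0.18 leaving out 1 library. For 24 h against 1 h, added later, the count was 5 (9.71% of all genes called). It became 7 with RLE factors (9.78%) and 3 with upper-quartile factors (9.65%). It was 0 with library size alone (13.1%) and 0 with the summed members as the scale (13.4%). No filter on low counts gave 3 (7.83%) and DESeq2 gave 28 (15.0%). Leaving out 1 library gave 0 to 6 (3.05% to 9.74%). The count was 0 without 1 h replicate 2 or 3 or either 24 h replicate. The cause of these changes was not tested beyond the scaling. Same-numbered replicates showed no tendency to deviate together (correlations from -0.044 to 0.033), and 1 of 11 libraries correlated best with its own number. With 2 or 3 libraries a group, this cannot show whether same-numbered samples were handled together. The replicate block gave 0 members at 24 h against the control, with a median log2 fold change of 0.17, and 1 for 24 h against 1 h (6.84% of all genes called).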

Other observations

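The rule admits identifiers of the PH01 type alone. A further 751 genes whose identifiers contain newGene met the same limits of CPM in all 11 libraries. When they were allowed, 17 of the 100 steadiest genes were newGene entries and 83 were members.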
